A study of Mus musculus with 4 samples.

Results

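The guanylate-binding proteins (GBPs) and the immunity-related GTPases (IRGs) are GTPases that interferons induce for the defence of a cell against pathogens in its cytosol and vacuoles. Their transcripts were followed here as a named group of 10 genes among the 28585 genes listed. The group holds 6 GBP genes (*Gbp2*, *Gbp3*, *Gbp4*, *Gbp5*, *Gbp7* and *Gbp9*) and 4 IRG genes (*Igtp*, *Irgm1*, *Irgm2* and *Iigp1*), chosen by name and family. Of the 10, 9 reached the mean of 0.1 FPKM required for testing, as did 17953 genes in all, and *Iigp1* did not. FPKM relate the fragments of a gene to its length and to the mapped total of the library.

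Bulk RNA sequencing was performed on polymorphonuclear myeloid-derived suppressor cells (PMN-MDSCs), neutrophil-like cells that restrain T cell responses, from the spleens of C57BL/6J pups on postnatal day 7. There were 2 libraries from Dhps ΔLysm pups (labelled Dhps cko), which carry Dhps fl/fl and a Cre recombinase driven by the *Lysm* (*Lyz2*) locus, and 2 from Dhps fl/fl pups (labelled Dhps flox), which carry the same floxed alleles. *Dhps* encodes deoxyhypusine synthase, which starts the hypusine modification of the translation factor eIF5A, and the comparison asks which transcripts differ when this enzyme is deleted in myeloid cells. Cells were sorted as CD11b+ Ly6C lo/- Ly6G+, *Lysm*-driven Cre acts in monocytes and macrophages as well as in neutrophils, and the labels give neither the sex of the pups nor whether a library pooled several, so p-values measure only the spread between these libraries.

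In the usual course of induction, interferon gamma acts through the gamma-activated sequence (GAS) of its target promoters, while interferons of type I and type III act through the interferon-stimulated response element (ISRE), which a complex with IRF9 binds. GBPs assemble on the membranes of pathogens and of their vacuoles and assist inflammasome activation. The IRGM proteins, encoded by *Irgm1*, *Irgm2* and *Igtp*, sit on the cell's own membranes and hold the effector IRGs, such as the product of *Iigp1*, in their inactive state.

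The promoters of the members are shown for the letters of the ISRE and GAS motifs. Since the genes were chosen as interferon-inducible, these motifs are not independent of the choice. RefSeq windows of GRCm38.p6, from 250 bases before to 50 bases after a start site, were used for 7 of the 10 members (8 windows, since *Gbp3* has 2 start sites). *Gbp4*, *Gbp9* and *Iigp1* had none. Both strands were searched for GAAANNGAAA (ISRE) and TTCNNNGAA (GAS, which reads the same on both strands). The stretches below run 5′ to 3′ along the gene's strand, with matches of either motif in capitals, so an ISRE on the opposite strand appears as its reverse complement.
Gbp2: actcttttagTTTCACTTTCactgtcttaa
Gbp3: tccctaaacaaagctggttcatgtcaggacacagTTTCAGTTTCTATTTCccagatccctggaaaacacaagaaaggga
Gbp5: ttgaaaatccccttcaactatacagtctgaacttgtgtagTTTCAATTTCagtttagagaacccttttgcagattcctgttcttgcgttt
Gbp7: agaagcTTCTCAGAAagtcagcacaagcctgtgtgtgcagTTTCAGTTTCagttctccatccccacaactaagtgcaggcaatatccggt
Igtp: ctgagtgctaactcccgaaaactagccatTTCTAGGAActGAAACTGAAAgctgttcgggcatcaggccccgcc
Irgm1: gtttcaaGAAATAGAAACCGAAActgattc
Irgm2: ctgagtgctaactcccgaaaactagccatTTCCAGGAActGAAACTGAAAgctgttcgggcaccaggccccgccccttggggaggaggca

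An ISRE match lay in the window of each of these 7 genes. The stretches are chr3:142620594-142620623 (*Gbp2*), chr3:142559965-142560043 (*Gbp3*), chr3:142496729-142496818 (*Gbp5*) and chr3:142530243-142530332 (*Gbp7*), all on the plus strand. Those of the IRG genes are chr11:58199482-58199555 (*Igtp*, plus strand), chr11:48871428-48871457 (*Irgm1*, minus strand) and chr11:58214873-58214962 (*Irgm2*, plus strand). GENCODE exons cover 22 of the 30 bases shown for *Gbp2*, 18 of the 79 for *Gbp3* and all 30 for *Irgm1*, and none of those shown for the other 4 genes. *Gbp3* and *Irgm1* each held 2 ISRE matches that overlap each other.

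By window, 7 of 8 (87.5%) held an ISRE match, against 3.44% of all 32851 promoter windows of the same length and 3.23% of the windows of genes tested. GAS matches lay in 4 of the 8 windows, those of *Gbp5*, *Gbp7*, *Igtp* and *Irgm2*, against 8.30% of all windows. Both GAS matches of *Gbp5* and one of the pair in *Gbp7* fall outside the stretches shown. The *Igtp* and *Irgm2* stretches were equal at 72 of the 74 bases compared (97.3%), and in both 2 bases separate the GAS match from the ISRE match. These matches are descriptions of letters and not evidence of binding.

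The genome places the members in clusters. *Gbp5*, *Gbp7*, *Gbp3* and *Gbp2* lie in that order on chromosome 3 (GRCm38, GENCODE annotation; chr3:142493978-142638008), *Gbp9* and *Gbp4* on chromosome 5 (chr5:105077630-105139586), *Irgm1*, *Igtp* and *Irgm2* on chromosome 11, and *Iigp1* on chromosome 18. The exons of *Igtp* and *Irgm2* overlap on the same strand, by 8.0% and 4.4% of their exon bases. In *Gbp7*, 11.3% of exon bases overlap *Gm43802*, also on the same strand. Of 100-base windows of transcript sequence, 10.0% of those of *Gbp7*, 5.2% of *Igtp* and 3.0% of *Irgm2* also occurred in another gene, and at most 1.7% of those of any other member.

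The FPKM of a library summed to between 304281 and 319286, with 10611 to 10729 genes at 1 FPKM or more. Steps between low FPKM values gave approximate depths of 29500000 to 33200000 fragments, with 40.7% to 42.8% of these values within 0.15 of a whole fragment where chance gives 30%, so whole reads were not recovered. Across 10629 genes, which are not independent, replicate libraries correlated with a Pearson r of 0.987 (Dhps ΔLysm) and 0.979 (Dhps fl/fl). Pairs of libraries across genotypes had an r between 0.978 and 0.983, a range that holds the value of the Dhps fl/fl replicates. *Dhps* itself was at 2.38 and 2.59 FPKM in Dhps ΔLysm compared with 3.57 and 3.11 FPKM in Dhps fl/fl, 74.4% of the Dhps fl/fl mean and lower in both libraries (log2 fold change -0.41 ± 0.13 (SE), limma adjusted p = 0.63). Neutrophil markers were abundant in every library, their 12 genes summing to between 73002 and 79945 FPKM.

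The members covered a wide range of levels. On the FPKM scale, which is per length, *Igtp* was the most abundant with a mean of 6.61 over the 4 libraries, followed by *Irgm2* (6.15), *Gbp7* (3.41), *Gbp9* (3.03), *Irgm1* (2.09), *Gbp2* (2.01), *Gbp3* (0.66), *Gbp5* (0.20), *Gbp4* (0.19) and *Iigp1* (0.073). *Igtp* stood above 72.0% of all genes tested, *Gbp2* above 51.6% and *Gbp4* above 11.8%. The ranges over libraries overlapped between the neighbours *Igtp* and *Irgm2*, *Gbp7* and *Gbp9*, *Irgm1* and *Gbp2*, and *Gbp5* and *Gbp4*, and not between the other neighbours in this order. Within a library *Igtp* was above *Irgm2*, and *Gbp7* above *Gbp9*, in 4 of 4 libraries, whereas *Irgm1* was above *Gbp2* in the 2 Dhps fl/fl libraries and below it in the 2 Dhps ΔLysm libraries.

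**Figure D1:**
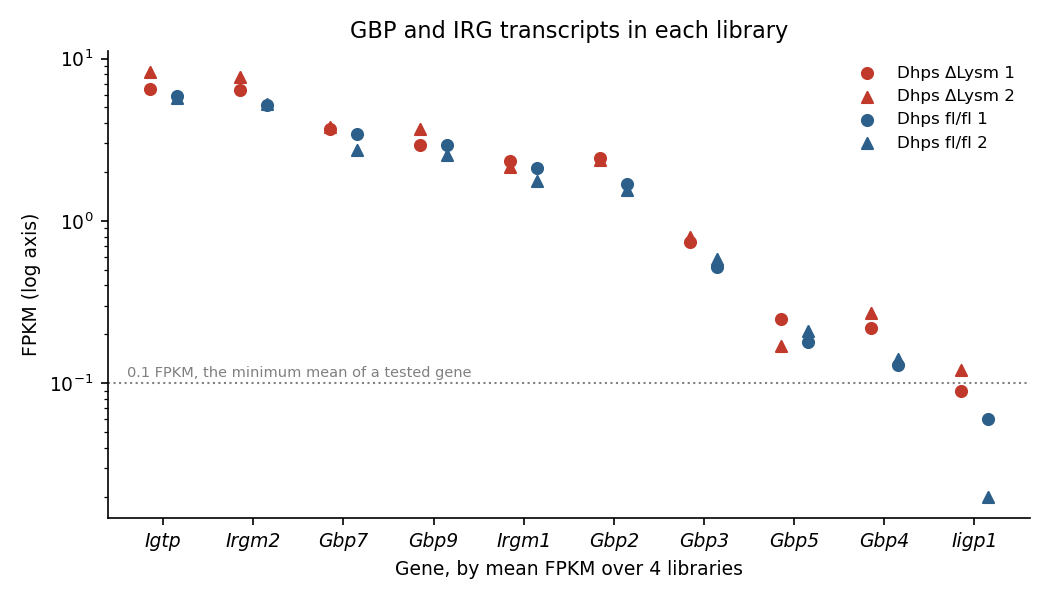
FPKM (log axis) of the 10 genes in each of the 4 libraries, ordered by mean level, with Dhps ΔLysm in red, Dhps fl/fl in blue, circles for replicate 1 and triangles for replicate 2. The levels run from 8.27 FPKM for *Igtp* to 0.02 FPKM for *Iigp1*, and *Gbp5* is the only gene whose red and blue points overlap.

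Among the GBP genes, *Gbp2* differed most clearly between genotypes. *Gbp2*, which encodes a GBP that reaches the vacuoles of *Toxoplasma* and bacteria, was at 2.43 and 2.36 FPKM in Dhps ΔLysm compared with 1.69 and 1.56 FPKM in Dhps fl/fl. Both Dhps ΔLysm libraries were above both Dhps fl/fl libraries, with a gap between groups larger than the spread within either. On average Dhps ΔLysm stood at 147% of Dhps fl/fl (log2 fold change 0.53 ± 0.13 (SE), 95% interval 0.19 to 0.88, limma unadjusted p = 0.011, adjusted p = 0.55).

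*Gbp3*, the member nearest to *Gbp2* on the chromosome, was at 0.74 and 0.79 FPKM in Dhps ΔLysm compared with 0.52 and 0.58 FPKM in Dhps fl/fl. The groups again did not overlap, at 139% of the Dhps fl/fl mean, but the interval of the log2 fold change of 0.41 ran from -0.16 to 0.98. With a pseudocount of 1 the log2 fold change was 0.19, and without a variance trend its unadjusted p was 0.026 (limma adjusted p = 0.60). The FPKM of *Gbp2* exceeded that of *Gbp3* by a factor of 3.28 and 2.99 in Dhps ΔLysm and 3.25 and 2.69 in Dhps fl/fl, so this ratio overlapped between genotypes.

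*Gbp7*, whose product has been tied to the assembly of the phagocyte NADPH oxidase, was the most abundant GBP member. Its level was 3.68 and 3.78 FPKM in Dhps ΔLysm compared with 3.43 and 2.73 FPKM in Dhps fl/fl. Most of the spread lay between the Dhps fl/fl libraries, and the gap between the nearest libraries of the genotypes was smaller than that spread (121% of the Dhps fl/fl mean, log2 fold change 0.28 ± 0.14 (SE), limma adjusted p = 0.77). It was 0.12 without Dhps fl/fl replicate 2 and 0.44 without Dhps fl/fl replicate 1.

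*Gbp9* was at 2.93 and 3.70 FPKM in Dhps ΔLysm compared with 2.92 and 2.56 FPKM in Dhps fl/fl. The lower Dhps ΔLysm library and the higher Dhps fl/fl library were all but equal, and their order turned when libraries were scaled by size factors or by quantiles. The mean was 121% of that in Dhps fl/fl (log2 fold change 0.26 ± 0.16 (SE), limma adjusted p = 0.80). The log2 fold change depended on single libraries, at 0.10 without Dhps ΔLysm replicate 2 and 0.42 without Dhps ΔLysm replicate 1. Leaving out Dhps fl/fl replicate 2 gave 0.17 and leaving out Dhps fl/fl replicate 1 gave 0.35.

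*Gbp4* and *Gbp5* were near the limit of detection. *Gbp4* was at 0.22 and 0.27 FPKM in Dhps ΔLysm compared with 0.13 and 0.14 FPKM in Dhps fl/fl, or about 33, 38, 18 and 19 fragments. The groups did not overlap, yet with the interval from -0.36 to 1.46 the log2 fold change of 0.55 was not resolved from 0. It was 0.13 with a pseudocount of 1 and 0.81 with one of 0.01, and without a variance trend its unadjusted p was 0.016 (limma adjusted p = 0.55). *Gbp5*, whose product promotes inflammasome assembly, was at 0.25 and 0.17 FPKM in Dhps ΔLysm compared with 0.18 and 0.21 FPKM in Dhps fl/fl.

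*Gbp5* was the only tested member whose groups overlapped. Its log2 fold change was 0.06 ± 0.36 (SE), with an interval from -0.87 to 0.99, and it became negative without Dhps ΔLysm replicate 1 (-0.13) or without Dhps fl/fl replicate 1 (-0.01). With 2 libraries a genotype and about 20 to 31 fragments in each, whether *Gbp5* differed was not resolved.

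Among the 3 tested IRG members, *Irgm2* had the largest log2 fold change between genotypes. *Irgm2*, a regulatory IRG, was at 6.43 and 7.71 FPKM in Dhps ΔLysm compared with 5.21 and 5.23 FPKM in Dhps fl/fl. The Dhps fl/fl libraries were almost identical, and both Dhps ΔLysm libraries lay above them. On average Dhps ΔLysm stood at 135% of Dhps fl/fl (log2 fold change 0.43 ± 0.12 (SE), 95% interval 0.13 to 0.72, limma unadjusted p = 0.014, adjusted p = 0.57).

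*Igtp*, which encodes IRGM3, was at 6.54 and 8.27 FPKM in Dhps ΔLysm compared with 5.87 and 5.74 FPKM in Dhps fl/fl. As for *Irgm2*, Dhps ΔLysm replicate 2 was the highest library and the Dhps fl/fl libraries were close to each other. The mean was 128% of that in Dhps fl/fl, with a log2 fold change of 0.34 ± 0.13 (SE) and a 95% interval that just reached 0 (limma unadjusted p = 0.052, adjusted p = 0.71). The log2 fold change was 0.17 without Dhps ΔLysm replicate 2 and 0.50 without replicate 1. *Irgm2* stood at 0.983 and 0.932 of the *Igtp* level in Dhps ΔLysm and at 0.888 and 0.911 in Dhps fl/fl.

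*Irgm1*, whose product also regulates autophagy and mitochondria, was at 2.33 and 2.15 FPKM in Dhps ΔLysm compared with 2.12 and 1.75 FPKM in Dhps fl/fl. The nearest libraries of the genotypes were closer to each other than the Dhps fl/fl libraries were (116% of the Dhps fl/fl mean, log2 fold change 0.21 ± 0.16 (SE), limma adjusted p = 0.82). Leaving out Dhps fl/fl replicate 2 gave 0.08 and leaving out replicate 1 gave 0.34. *Iigp1*, the effector IRG of the group, was at 0.09 and 0.12 FPKM in Dhps ΔLysm compared with 0.06 and 0.02 FPKM in Dhps fl/fl, or about 9, 12, 6 and 2 fragments. It was below the minimum for testing, and these few fragments give no firm order.

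Across the members, none of 9 passed an adjusted p of 0.05 in limma, where 1 of 17953 genes did (0.00557% of genes tested, *Gm20716*, named after its value was seen). At an unadjusted p under 0.05, 2 of 9 members passed, *Gbp2* and *Irgm2*, both higher in Dhps ΔLysm, against 4.72% of all genes tested that passed in that direction. Neither pass held in every refit with a library left out. Without Dhps ΔLysm replicate 2 no member passed, and *Gbp2* alone passed when Dhps fl/fl replicate 2 was left out. *Irgm2* and *Igtp* passed without Dhps ΔLysm replicate 1, and *Gbp2* and *Gbp7* without Dhps fl/fl replicate 1. The 95% interval of the log2 fold change held 0 for the other 7 members.

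In both Dhps ΔLysm libraries, 8 of the 9 tested members (88.9%) were above both Dhps fl/fl libraries, against 20.0% of all genes tested. The median log2 fold change of the 9 was 0.34, with members between 0.06 and 0.55, beside a median of 0.01 over all genes tested. The GBP members had a median of 0.35 and the IRG members of 0.34. By position, the median was 0.35 for the 4 genes on chromosome 3, 0.41 for the 2 on chromosome 5 and 0.34 for the 3 on chromosome 11.

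**Figure D2:**
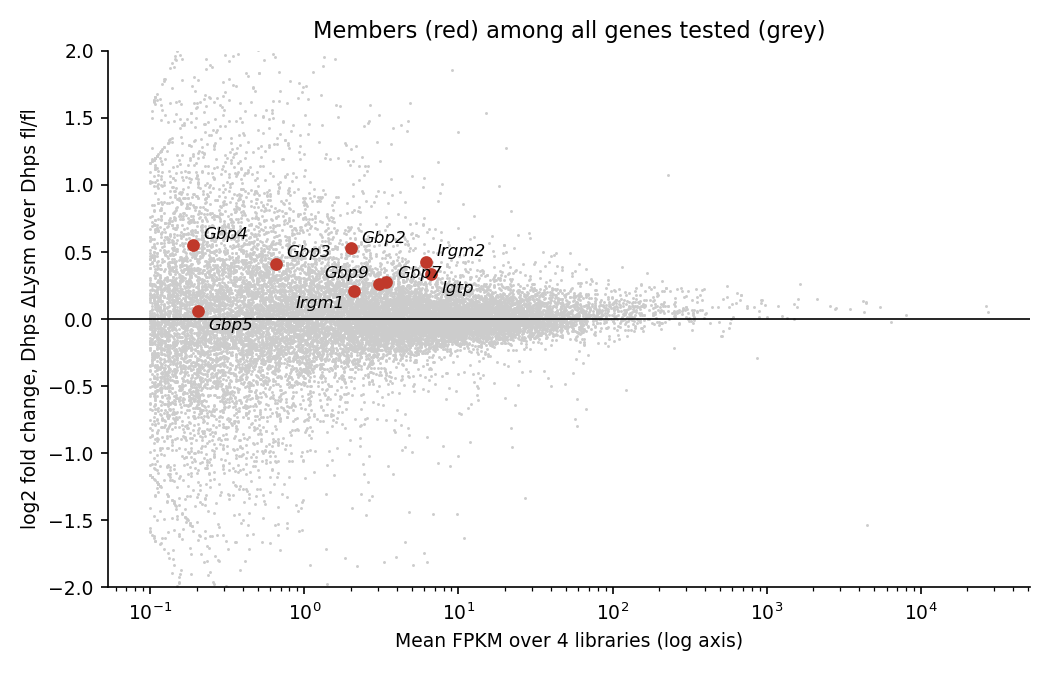
Log2 fold change of Dhps ΔLysm over Dhps fl/fl against mean FPKM (log axis) for the genes tested (grey) and the 9 tested members (red), with 90 genes beyond a log2 fold change of 2 in either direction outside the plot. All 9 red points lie above 0, between 0.06 and 0.55, within the cloud of genes of like abundance.

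The 10 members summed to 25.6 and 29.3 FPKM in Dhps ΔLysm and to 22.1 and 20.5 FPKM in Dhps fl/fl. The groups did not overlap, and the Dhps ΔLysm mean of 27.5 ± 2.6 (SD, n = 2) was 129% of the Dhps fl/fl mean of 21.3 ± 1.1 (SD, n = 2). For the GBP members the sum was 128% of the Dhps fl/fl mean and for the IRG members 129%. With 2 libraries a genotype, an exact permutation test cannot go below p = 0.33, so no p was computed for these sums. In bulk samples, fewer cells of a type and less RNA per cell cannot be told apart.

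A further list held 21 genes, GBPs and IRGs with the very large GTPases *Gvin1* and *Gm4070*, which form a separate family. Of these 21, 14 were tested and 0 passed an adjusted p of 0.05 in limma. At an unadjusted p under 0.05, 3 of them (*Ifi47*, *Gvin1* and *Gm4070*) were higher in Dhps ΔLysm (against 4.72% of all genes) and 0 lower. The groups did not overlap for 8 of the 14, all higher in Dhps ΔLysm (against 20.0% of all genes), and the median log2 fold change was 0.38. These counts include near-copies that share much of their sequence (*Gvin1* with *Gm4070*, *Tgtp1* with *Tgtp2*, and *9930111J21Rik1* with *9930111J21Rik2*), so they are not counts of independent genes.

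*Ifi47*, which encodes the IRG protein IRGD, was at 1.79 and 2.29 FPKM in Dhps ΔLysm compared with 1.19 and 0.95 FPKM in Dhps fl/fl. Both Dhps ΔLysm libraries were above, at 191% of the Dhps fl/fl mean (log2 fold change 0.87 ± 0.21 (SE), limma unadjusted p = 0.0084, adjusted p = 0.53). *Gvin1*, a very large interferon-inducible GTPase, was at 3.03 and 2.77 FPKM against 2.05 and 1.86 FPKM, and *Gm4070* at 2.75 and 2.49 against 1.87 and 1.75. Of their 100-base windows, 96.7% of *Gvin1* and 92.9% of *Gm4070* occur in the other gene, so fragments may have been split between them and their values are uncertain.

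*Gbp8*, beside *Gbp9* on chromosome 5, was at 1.85 and 2.42 FPKM in Dhps ΔLysm compared with 1.76 and 1.43 FPKM in Dhps fl/fl. Its groups did not overlap, though the gap was small (log2 fold change 0.39 ± 0.20 (SE), limma adjusted p = 0.77). The remaining tested family genes had log2 fold changes between 0.01 and 1.19, none with an unadjusted p under 0.05 in limma, and *Gbp11* was listed at 0 in all 4 libraries.

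**Figure D3:**
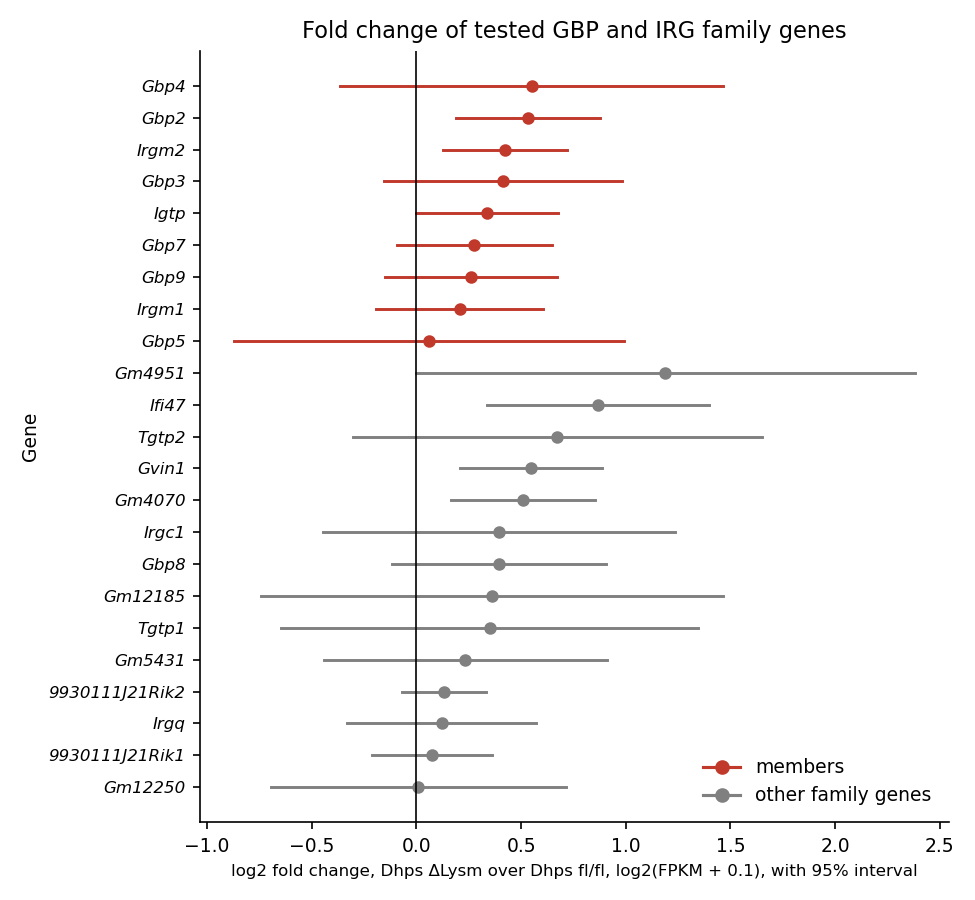
Log2 fold change of Dhps ΔLysm over Dhps fl/fl on log2(FPKM + 0.1) with its 95% interval from limma. The 9 tested members are in red. The 14 other tested genes, in grey, are GBPs and IRGs with the very large GTPases *Gvin1* and *Gm4070*. All 23 points lie above 0, and of the members only the intervals of *Gbp2* and *Irgm2* lie wholly above it.

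Genes upstream of the members were examined next, from the ligand to the transcription factors. *Ifng*, which encodes interferon gamma, was listed at 0 in all 4 libraries. Of the 13 ligand genes sought, which included the cytokines that elicit interferon gamma, 5 were analysed here and 2 were tested. The 2 tested, *Il12a* and *Il18*, encode such cytokines and not interferons. Neither had an unadjusted p under 0.05 in limma. No interferon gene was tested.

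The receptors and their kinases were abundant and close between genotypes. *Ifngr1*, the ligand-binding chain of the interferon gamma receptor, was at 36.5 and 37.8 FPKM in Dhps ΔLysm compared with 37.5 and 38.4 FPKM in Dhps fl/fl. Its groups overlapped, with a log2 fold change of -0.03 (95% interval -0.17 to 0.11). Of the 9 receptor and kinase genes tested, 0 reached an unadjusted p under 0.05 in limma, 3 were higher in both Dhps ΔLysm libraries (against 20.0% of all genes), and the median log2 fold change was -0.03.

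Of 8 transcription factor genes tested, 7 were higher in both Dhps ΔLysm libraries (against 20.0% of all genes) and 5 had an unadjusted p under 0.05 in limma, all higher (against 4.72%), while 0 passed the adjusted threshold. *Irf9*, the DNA-binding partner in the ISRE complex, was at 13.9 and 14.3 FPKM against 9.43 and 9.96 FPKM in Dhps fl/fl (limma adjusted p = 0.38). *Irf1*, which activates GBP genes, was at 18.6 and 21.1 FPKM against 17.7 and 17.8 FPKM, a log2 fold change of 0.16 (95% interval -0.06 to 0.37).

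*Irf7*, which amplifies type I interferon, was at 12.7 and 11.8 FPKM in Dhps ΔLysm compared with 7.40 and 7.81 FPKM in Dhps fl/fl, 161% of the Dhps fl/fl mean (limma adjusted p = 0.35). *Nlrc5*, the transactivator of MHC class I genes, was at 0.75 and 0.89 FPKM against 0.40 and 0.36 FPKM, 216% of the Dhps fl/fl mean (adjusted p = 0.56). Whether these factors differed from each other or from the members in their change was not tested.

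Of 7 inhibitors of the pathway, 4 were higher in both Dhps ΔLysm libraries (against 20.0% of all genes) and 2 had an unadjusted p under 0.05 in limma, both higher (against 4.72%), while 0 passed the adjusted threshold. Their median log2 fold change was 0.08. *Usp18*, which limits signalling from the type I receptor and removes ISG15 from proteins, was at 1.41 and 1.46 FPKM in Dhps ΔLysm compared with 0.84 and 0.62 FPKM in Dhps fl/fl (log2 fold change 0.90 ± 0.21 (SE), limma adjusted p = 0.53). *Socs3*, which restrains JAK kinases, was at 6.68 and 6.11 FPKM against 4.85 and 5.46 FPKM. Its adjusted p was 0.67.

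Other interferon targets were set beside the members. Of 20 other genes that interferon gamma induces, 14 were higher in both Dhps ΔLysm libraries (against 20.0% of all genes), 6 had an unadjusted p under 0.05, all higher (against 4.72%), and 0 an adjusted p under 0.05 in limma, with a median log2 fold change of 0.28. *H2-K1*, a classical MHC class I heavy chain, was at 49.4 and 49.6 FPKM against 36.4 and 38.9 FPKM in Dhps fl/fl. *Tap1*, which moves peptides to MHC class I, was at 11.9 and 12.0 against 9.49 and 9.57 FPKM. Of 25 antiviral genes typical of type I interferon, 24 were higher in both Dhps ΔLysm libraries and 1 was lower in both (against 20.0% and 16.0%), 17 had an unadjusted p under 0.05, all higher (against 4.72%), and 0 an adjusted one, with a median of 0.55.

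Among these antiviral genes, *Oasl2*, a member of the oligoadenylate synthetase family, was at 3.60 and 3.31 FPKM in Dhps ΔLysm compared with 1.55 and 1.47 FPKM in Dhps fl/fl. This was 229% of the Dhps fl/fl mean (log2 fold change 1.14 ± 0.13 (SE), limma adjusted p = 0.35), a larger fold than that of any tested member. *Rtp4* was at 8.03 and 8.22 FPKM against 4.29 and 3.49 FPKM, also without passing the adjusted threshold (limma adjusted p = 0.35). An ISRE match lay in 13 of 21 promoter windows of the antiviral genes (61.9%) and in 2 of 19 windows of the other interferon gamma targets (10.5%).

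**Figure D4:**
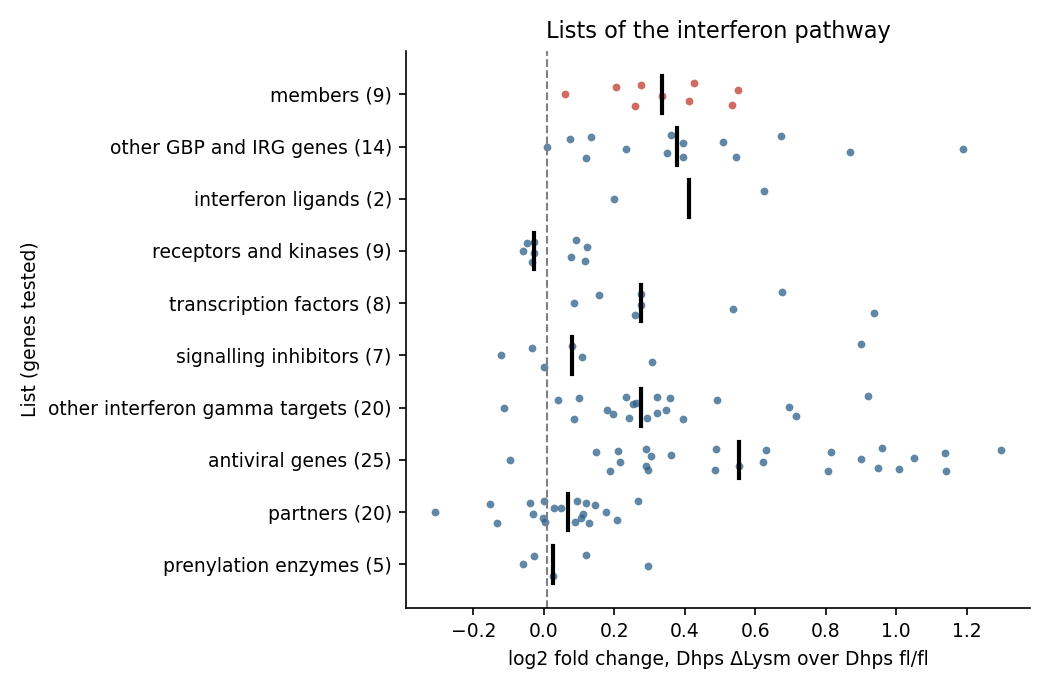
Log2 fold change of Dhps ΔLysm over Dhps fl/fl for each tested gene of 10 lists of the interferon pathway, with the members in red, black bars at each list's median and a dashed line at the median of all genes tested (0.01). The medians are 0.34 for the members, 0.55 for the antiviral genes, 0.28 for the other interferon gamma targets and -0.03 for the receptors and kinases.

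GBP and IRG proteins act together with the autophagy conjugation system, ubiquitin ligases and inflammasomes, and several GBPs carry a prenyl anchor. Of 20 such partner genes, 7 were higher and 4 lower in both Dhps ΔLysm libraries, 1 had an unadjusted p under 0.05 in limma and 0 an adjusted one, and the median log2 fold change was 0.07. Among all genes tested, 20.0% were higher and 16.0% lower in both, so the 4 lower partners lie near that share, as does the 1 with an unadjusted p under 0.05 near the share of all genes that passed (847 higher and 410 lower of 17953). That gene was *Gabarap*, an ATG8 protein, at 150 and 151 FPKM in Dhps ΔLysm and 133 and 127 FPKM in Dhps fl/fl (limma adjusted p = 0.56). *Atg5*, needed for the conjugation of ATG8 proteins, was at 10.9 and 13.5 FPKM against 16.1 and 14.1 FPKM, lower in both Dhps ΔLysm libraries (adjusted p = 0.74). The 5 prenylation enzymes had a median of 0.03 and no unadjusted p under 0.05.

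Markers of several other cell types were also higher in Dhps ΔLysm, none of them with an adjusted p under 0.05 in limma. The 8 B cell markers summed to 64.9 and 67.7 FPKM in Dhps ΔLysm and to 41.5 and 50.8 FPKM in Dhps fl/fl, with 6 of 8 higher in both libraries (against 20.0% of all genes tested). The 8 T cell markers summed to 18.5 and 15.0 FPKM against 11.9 and 8.01 FPKM, with 5 of 8 higher in both (against 20.0%). The 10 monocyte and macrophage markers summed to 381 and 376 FPKM against 312 and 316 FPKM, with 8 of 10 higher in both (against 20.0%).

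Sums were higher in both Dhps ΔLysm libraries also for the dendritic cell markers (5.95 and 5.32 against 3.33 and 4.48 FPKM) and for the eosinophil, basophil and mast cell markers (19.2 and 18.9 against 10.5 and 14.9 FPKM). The sum of the neutrophil markers, most of it *Ngp* and *S100a9*, stood at 105% of the Dhps fl/fl mean, with 4 of 12 higher in both (against 20.0%). One of these was *Ly6g*, whose product was used for the sort, at 222 and 242 against 195 and 185 FPKM (log2 fold change 0.29, limma unadjusted p = 0.008, adjusted p = 0.53). Those of NK cells, erythroid cells and platelets overlapped between genotypes, and of the NK cell markers *Klrb1c* and *Klre1* were each at 0 in 2 libraries and *Prf1* in both Dhps fl/fl libraries. The most abundant marker was *Ighm* for B cells (40.6 and 42.9 against 27.0 and 32.0 FPKM), *Trbc2* for T cells (8.25 and 5.36 against 3.57 and 1.51 FPKM) and *Ly6c2* for monocytes and macrophages (192 and 184 against 158 and 161 FPKM). In the other lists it was *Ngp* (neutrophil), *Itgax* (dendritic cell), *Siglecf* (eosinophil, basophil and mast cell), *Gzma* (NK cell), *Hbb-bs* (erythroid) and *Itgb3* (platelet). B cells, T cells and macrophages also express GBPs and IRGs, and the part of these cells in the values of the members was not tested.

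**Figure D5:**
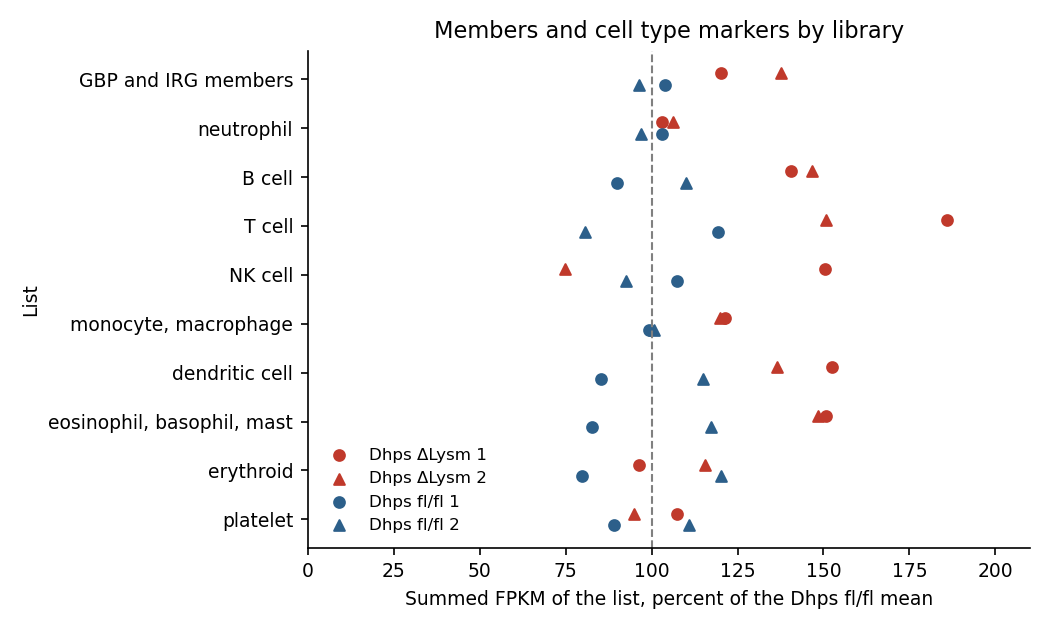
Summed FPKM of the 10 members and of each cell type marker list in every library, as a percentage of the Dhps fl/fl mean of that list (dashed line at 100), with Dhps ΔLysm in red, Dhps fl/fl in blue, circles for replicate 1 and triangles for replicate 2. The members stand at 129% in Dhps ΔLysm on average, B cell markers at 144%, T cell markers at 168%, monocyte and macrophage markers at 121% and neutrophil markers at 105%.

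The libraries also differed in transcripts linked to sex. The Y-linked *Ddx3y* was at 2.14 and 2.47 FPKM in Dhps ΔLysm compared with 5.57 and 4.92 FPKM in Dhps fl/fl, and all 4 Y-linked genes were lower in both Dhps ΔLysm libraries. *Xist*, expressed from the inactive X chromosome, was at 27.5 and 20.3 FPKM against 16.3 and 17.2 FPKM. Every library held both kinds of transcript, and the mix of sexes and the genotype cannot be told apart in these 4 libraries.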

How the data were processed

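The data were gene-level FPKM of 4 libraries. The authors filtered reads with Cutadapt, aligned them to mm10 with HISAT2 and calculated the deposited FPKM with StringTie and ballgown, rounded to 2 decimals. The annotation release, strand setting and any scaling between libraries are not given in the sources used here. Libraries were grouped by the labelled genotype.

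From the deposited FPKM, log2(FPKM + 0.1) was compared between genotypes with limma 3.58.1 in R 4.3.3 (lmFit, eBayes with a trend, two-sided) over the 17953 genes that averaged 0.1 FPKM or more, with Benjamini-Hochberg adjustment and a threshold of 0.05. Fold changes on this scale understate those of low genes. The comparison was tested on simulated data with normal noise and a spread smoothed over abundance. There 37.2% of genes given a log2 change of 0.5 passed the adjusted threshold, and 94.4% of those given 2. Depth was estimated from FPKM steps, so fragment numbers are approximate and cover counting error only. Of the gene IDs, 28511 were in the GENCODE annotation of GRCm38 and 74 were not. Other steps used Python 3.11.15, pandas 2.3.3 and numpy 2.4.6.

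The members and lists were chosen with earlier results of these data known. Named were all members, *Dhps*, and from each other list genes with an adjusted p under 0.05, up to 4 with the lowest unadjusted p at a mean of at least 0.5 FPKM, the pathway genes whose role is stated, and of marker lists the most abundant gene and those at or near 0. Alternatives were other pseudocounts, filters, scalings, no trend, a replicate block and leaving out each library. A gene of the transcription factor list is counted with its list and not reported by name here.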

Additional observations from a re-analysis of the deposited data

How the results depend on the processing

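Of 114 refits of single members, 112 had a log2 fold change in the same direction as the value reported. Dropping the variance trend, adding the replicate block or changing the filter leaves a log2 fold change as it was. The direction of those refits was therefore fixed in advance. All 114 were on the same side of the adjusted threshold. At most 4 genes passed it under any setting, so this agreement says little. The exceptions in direction were *Gbp5* without Dhps ΔLysm replicate 1 (-0.13) and without Dhps fl/fl replicate 1 (-0.01), and leaving out single libraries moved it between -0.13 and 0.25. No member passed an adjusted p of 0.05 in limma under any of the 13 alternatives. The median log2 fold change of the members lay between 0.20 (pseudocount 1) and 0.46 (without Dhps ΔLysm replicate 1), and their summed FPKM in Dhps ΔLysm between 120% and 138% of Dhps fl/fl. Members higher in both Dhps ΔLysm libraries numbered 7 under size factor or quantile scaling, where *Gbp9* overlapped, and 9 without Dhps ΔLysm replicate 2.

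The number of members with an unadjusted p under 0.05 was 4 without a variance trend, 3 with a mean of at least 1 FPKM, and between 0 and 2 when a library was left out, where it held at most 1 of *Gbp2* and *Irgm2*, the lone library of a genotype then being assumed to vary like the others. The number of genes with an adjusted p under 0.05 was 1, and became 0 with a pseudocount of 0.01, 0 with no filter on low values, 4 with a mean of at least 1 FPKM, 2 with quantile scaling and 0 when any library was left out. The cause of these shifts was not tested. The labels number replicates 1 and 2 in both genotypes, but the deviations of same-numbered libraries had a correlation of -0.06 across 10629 genes, and with 2 pairs the numbers are not shown to pair the libraries. With the replicate block, 0 genes and 0 members passed the adjusted threshold, 2 members had an unadjusted p under 0.05, and the median of the members was 0.34.

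Depth limits *Gbp4*, *Gbp5* and *Iigp1*, with about 2 to 38 fragments a library.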
